A study of Mus musculus with 10 samples.

Results

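Collagens, laminins and the proteins that bind, cross-link or modify them form the extracellular matrix, and 51 of their genes were followed here in human prostate cancer xenografts. The genes were chosen by name: every protein-coding gene named as a collagen chain or as a laminin alpha, beta or gamma chain, together with FN1, SPARC, TGFBI, PLOD1, PLOD2, PLOD3, LOX, LOXL2, NID1 and HSPG2. These names matched 66 of the 58735 genes in the count table, and 51 of them had 20 or more reads summed over the 10 tumours. Just inside that minimum were COL12A1 with 21 reads and COL5A3 with 22, and just outside it were TGFBI with 19 and LAMA4 with 15. The rule used the level in these tumours and no difference between groups. Members and lists were, however, chosen with earlier results of these data known.

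The tumours were subcutaneous grafts of the human prostate cancer line LNCaP, which grows in response to androgen, in mice of the strain NOD.Cg-Prkdcscid Il2rgtm1Wjl/SzJ, which make no T, B or NK cells of their own but keep mouse fibroblasts, blood vessels and myeloid cells. The cells of all 10 tumours were inoculated with 50% matrigel, a basement membrane extract of mouse origin, and the mice of both groups are labelled as given sip-T (sipuleucel-T, human blood cells exposed to a prostatic acid phosphatase fusion protein) in 4 weekly intraperitoneal injections of 100 µl, begun when tumours measured 50 to 100 mm2. In the IL-15 group (n = 5 tumours) the sip-T was given with 1 µg of rhIL-15, the recombinant form of a cytokine on which T and NK cells depend, and in the control group (n = 5 tumours) control sip-T was given, per the sample labels. The design text also says that control mice were dosed with vehicle (PBS), without saying whether these are the mice labelled as given control sip-T. Per sample, the labels write of control sip-T given with rhIL-15, while the study's design text has sip-T that was itself treated with IL-15 as well as an injection of rhIL-15, and these cannot be told apart. Tissue was collected 7 days after the final injection. The sources used here do not give the ages of the mice, the number of cell donors or whether each tumour came from a different mouse, so p-values measure only how far these tumours differ from each other.

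As background, collagen chains wind into triple helices of 3 chains each, some from 1 gene and some from several, and a chain without its partners is usually held back in the cell. Laminins are cross-shaped trimers of 1 alpha, 1 beta and 1 gamma chain, and together with collagen IV, nidogen and perlecan they build the basement membrane that lies under epithelia and around vessels. Lysyl hydroxylases (PLOD genes) modify collagen in the endoplasmic reticulum, and lysyl oxidases (LOX genes) cross-link it outside the cell. In prostate tissue most fibrillar collagen is made by stromal fibroblasts, whereas epithelial cells make laminins.

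Total counts lay between 13.56 and 19.32 (in units of 1e+06 reads) per tumour, and a detection floor of 3 reads lay at 0.159 to 0.221 CPM, allowing for no error beyond that of counting. CPM are read counts per 1e+06 reads, scaled here by edgeR's TMM factors, and compare tumours, and FPKM are the authors' values per gene length and compare genes. The luminal prostate list summed to 10833 CPM in IL-15 tumours and 10140 CPM in control tumours, as the LNCaP label implies. Human fibroblast markers were scarce: the 13 genes of that list, of which 12 had a read, summed to 3.38 ± 0.99 CPM in IL-15 tumours (range 2.28 to 4.93) and 2.90 ± 0.95 CPM in control tumours (range 2.31 to 4.58; SD, n = 5 each), and no read was counted for POSTN. PDGFRB, which mural cells also express, had the most with 259 reads and at least 1.06 CPM in every tumour. DCN had 27 reads in all, and LUM had 49 reads in IL-15 tumours, 42 of them in tumour 3, and 1 in control tumours. The labels give mouse as the organism while the tables hold human genes, and the sources used here do not say if mouse reads were removed, so the values describe reads assigned to human genes and their mouse part was not tested.

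The matrix transcripts of these tumours were dominated by a few genes. Of the 51, 8 had a mean of at least 10 FPKM, 13 had 1 to 10, 13 had 0.1 to 1, and 17 were below 0.1 FPKM. COL6A1, a chain of the beaded microfibrils of collagen VI, had the highest mean with 64.2 FPKM, followed by the laminin chain LAMC1 with 49.0, the lysyl hydroxylase PLOD1 with 45.9 and fibronectin (FN1) with 33.4 FPKM. By FPKM, COL6A1 ranked highest in 8 tumours, LAMC1 in IL-15 tumour 4 and FN1 in control tumour 4. Without regard to length the order differed, with means of 635 CPM for FN1, 455 for LAMC1, 379 for COL6A1 and 269 for PLOD1. The order by FPKM thus rests on the gene lengths used, 17315 bases for FN1 and 5343 for COL6A1. All 51 together summed to 308 ± 62.6 FPKM in IL-15 tumours and 318 ± 23.8 FPKM in control tumours (SD, n = 5 each).

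**Figure D1:**
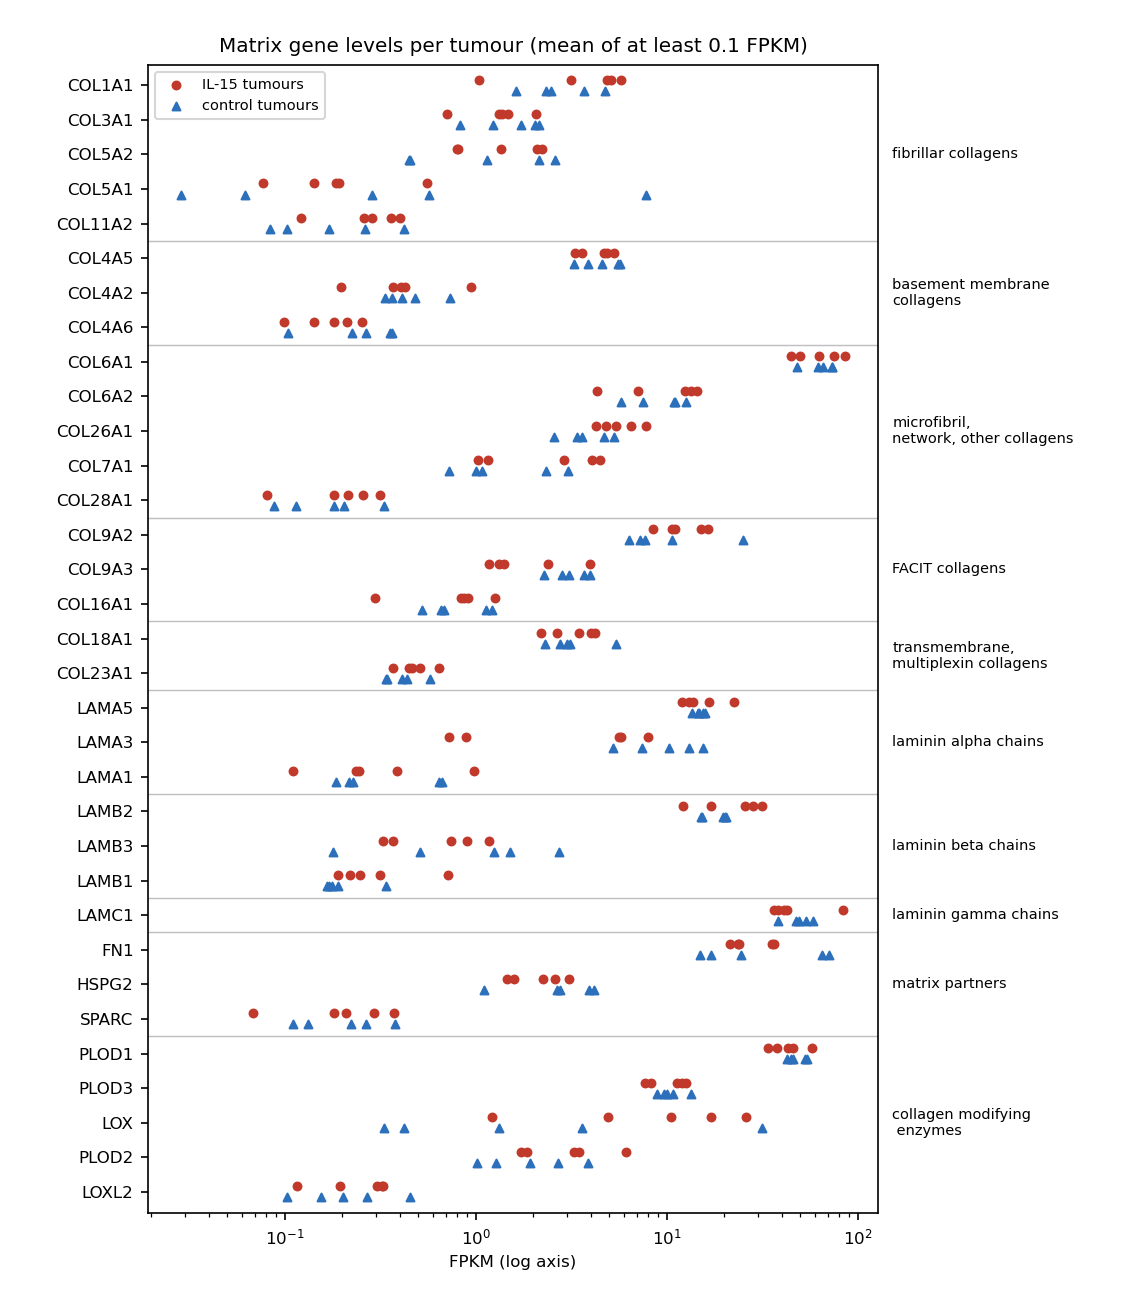
Level of 33 genes with a mean of at least 0.1 FPKM, grouped by role, on a log axis of the authors' FPKM. Points are single tumours (red circles, IL-15; blue triangles, control), and COL6A1, LAMC1, PLOD1 and FN1 lie furthest to the right while LOX, COL5A1 and LAMA3 have the widest rows.

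Among the laminins, the alpha 5, beta 2 and gamma 1 chains, which form a laminin trimer of adult epithelial and vascular basement membranes, were the abundant ones. LAMA5 averaged 15.3 FPKM, LAMB2 20.6 and LAMC1 49.0, and every tumour had at least 11.99 FPKM of each. LAMB1, the beta chain that stands in place of LAMB2 in a sister trimer, averaged 0.273 FPKM, 179 times less than LAMC1. LAMA3 and LAMB3, whose products anchor epithelial cells to the basement membrane through hemidesmosomes, were unequal. LAMA3 averaged 7.26 FPKM and LAMB3 0.970, and LAMA3 was the higher in 9 of 10 tumours. The embryonic alpha chain LAMA1 averaged 0.390 FPKM, and LAMA2, LAMB4 and LAMC3 averaged under 0.1.

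Several collagens were present as incomplete sets of chains. COL1A1, the main chain of collagen I, had 5812 reads over the 10 tumours, whereas COL1A2, its usual partner, had 6 (95% exact Poisson interval 2.20 to 13.1), of which 4 came from a single tumour. COL4A2, which pairs with COL4A1 in the common collagen IV of basement membranes, had 1578 reads against 4 for COL4A1 (interval 1.09 to 10.2). COL6A1 and COL6A2 had 56864 and 9031 reads, and COL6A3, the third chain of collagen VI, had 31 (interval 21.1 to 44.0). COL9A2 and COL9A3, chains of the cartilage collagen IX, had 8399 and 2159 reads against 8 for COL9A1 (interval 3.45 to 15.8). In each of these 4 collagens the abundant chain exceeded the scarce chain in 10 of 10 tumours per length. These intervals cover counting error only, and the low chains describe reads assigned to human genes, not the matrix around the cells.

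The remaining collagens were at intermediate or low levels. COL3A1, whose product forms a homotrimer, averaged 1.495 FPKM. COL5A2 averaged 1.41 FPKM and its partner COL5A1, a chain that starts fibril formation, 0.988 FPKM, but COL5A1 exceeded COL5A2 in control tumour 2 alone. COL4A5 averaged 4.49 FPKM and COL4A6, its partner in a smooth muscle and epithelial form of collagen IV, 0.221 FPKM, with COL4A5 higher in 10 of 10 tumours by 15.6 to 33.3 times. COL7A1, which forms the anchoring fibrils under epithelia, averaged 2.19 FPKM, COL18A1, the source of endostatin, 3.33 FPKM, and COL26A1, a collagen described in mouse testis and ovary, 4.84 FPKM. The associated collagen COL16A1 averaged 0.841 FPKM and the transmembrane collagen COL23A1 0.454 FPKM.

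**Figure D2:**
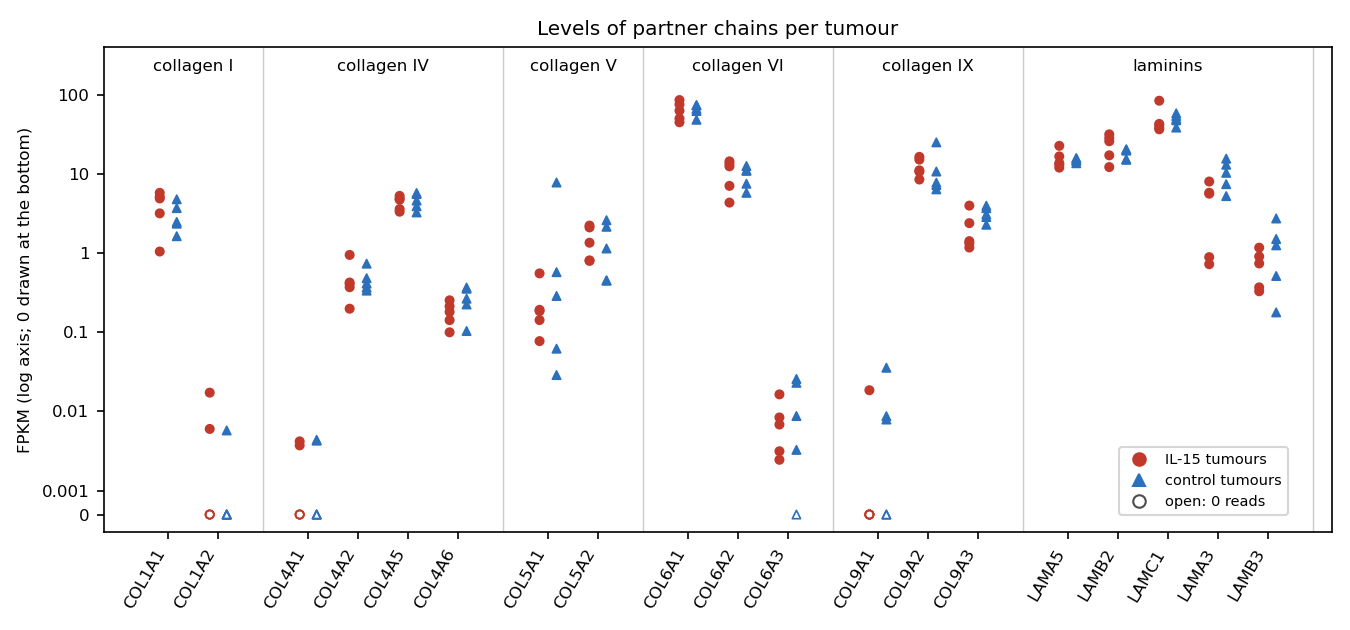
FPKM of the chains of individual collagens and laminins, by tumour, on a log axis with 0 drawn at the bottom as open symbols (red circles, IL-15; blue triangles, control). The partner chains COL1A2, COL4A1, COL6A3 and COL9A1 lie below 0.1 FPKM in every tumour, whereas LAMA5, LAMB2 and LAMC1 all lie above 10 FPKM.

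Among the partners, FN1 encodes the adhesive glycoprotein fibronectin and was abundant, HSPG2 encodes the basement membrane proteoglycan perlecan and averaged 2.56 FPKM, and SPARC, a collagen-binding protein of stromal cells, averaged 0.224 FPKM. NID1, whose product links laminin to collagen IV, had 10 reads in all, and TGFBI, a secreted protein that binds collagen, had 19. The enzymes were better represented: PLOD1 averaged 45.9 FPKM, PLOD3 10.5, LOX 9.73, PLOD2 2.73 and LOXL2 0.245. Of the genes that process collagen in the endoplasmic reticulum, P4HB, a subunit of prolyl hydroxylase, averaged 141 FPKM and its catalytic partner P4HA1 37.4 FPKM, whereas SERPINH1, the collagen chaperone, had 16 reads in all. Some of these genes overlap a neighbour, and the strand setting of the counting is unknown from the sources used here, so reads of both cannot be told apart. This touches LAMA5 with ADRM1 (19698 reads), COL18A1 with SLC19A1 (15665), LAMB1 with DLD (25554) and PLOD3 with ZNHIT1 (13068). It also touches COL9A3 with TCFL5 (4934) and LOX with SRFBP1 (2538). LOXL2 and its neighbour ENTPD4 (12571) lie on the same strand, so for them the strand setting would not decide.

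Setting IL-15 tumours against control tumours asks whether giving IL-15 with sip-T came with other levels of matrix transcripts. No matrix gene passed the test. Of the 35 abundant enough to be tested, 0 had an edgeR adjusted p under 0.05, where 0.0% of all 16913 genes did, and the smallest adjusted p was 0.758. At an unadjusted p under 0.05 there was 1, COL26A1, which is 2.86% of the 35 against 6.46% of all genes. DESeq2 called 0 of the 35 (0.0414% of all genes), with 1 of the 35 at an unadjusted p under 0.05 (7.37% of all genes). It gave no p for COL5A1, which it therefore could not call. The voom method of limma also called 0 (0.0% of all genes), with 3 of the 35 at an unadjusted p under 0.05 (6.23% of all genes). Fold changes lay above 0 in 22 and below 0 in 13 of the 35, with 49.0% of all genes above 0, and their median log2 fold change was 0.02, against -0.01 over all genes. The groups overlapped in every one of the 35 genes, while 0.662% of all genes did not overlap. The other 16 genes were too scarce to be tested. In bulk tumours fewer cells of a type and less RNA per cell cannot be told apart.

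**Figure D3:**
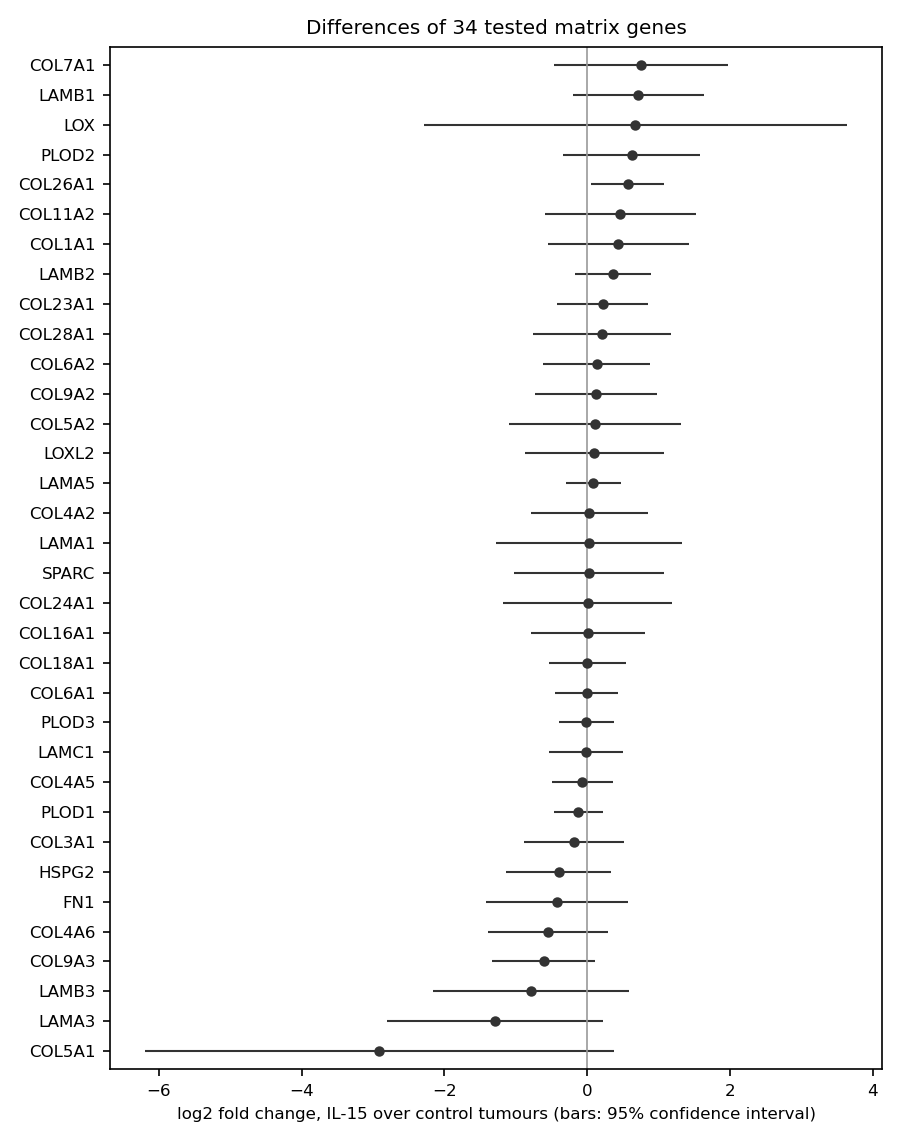
Log2 fold change (IL-15 over control, edgeR) of 34 tested genes with 95% confidence intervals, ordered by value. COL5A1 at -2.91 and COL7A1 at 0.75 mark the ends, and the interval of COL26A1 is the 1 that lies wholly on 1 side of 0.

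Among the laminin chains, LAMA3 (chromosome 18, 23689443 to 23956222 on hg38) had the largest difference. It measured 14.5, 93.5, 12.04, 91.6 and 129 CPM in IL-15 tumours 1 to 5, and 85.9, 210.3, 247, 118 and 168 CPM in control tumours 1 to 5. IL-15 tumours 1 and 3 were far below every control tumour, and the other 3 lay within the control range. The means were 68.1 ± 52.1 CPM in IL-15 tumours and 166 ± 65.7 CPM in control tumours (SD, n = 5 each), with an edgeR log2 fold change of -1.29 ± 0.66 (SE, adjusted p = 0.774). IL-15 tumours 1 and 3 also had the highest summed level of a human T cell list, 32.95 and 21.4 CPM, while IL-15 tumour 4, with 17.9 CPM of it, had 91.6 CPM of LAMA3. IL-15 tumours 2 and 5 had 4.89 and 5.81 CPM of the list. Control tumour 3 had the most of it among controls, 13.9 CPM, and the highest LAMA3 of all 10 tumours, 247 CPM. Over the groups that list summed to 16.6 ± 11.7 CPM in IL-15 and 5.47 ± 4.72 CPM in control tumours (all 9 genes with a read, ranges 4.89 to 32.95 and 2.88 to 13.9; two-sided exact permutation p = 0.0556, adjusted 0.278 over 10 lists), and its part in the LAMA3 values was not tested.

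The partner chain LAMB3 averaged 3.66 ± 1.86 CPM in IL-15 tumours and 6.34 ± 5.04 CPM in control tumours (SD, n = 5 each), a log2 fold change of -0.79 ± 0.60 (edgeR adjusted p = 0.830). The beta chains LAMB1 and LAMB2 leaned the other way, LAMB2 with 176 ± 63.1 CPM in IL-15 and 137 ± 21.0 CPM in control tumours (log2 fold change 0.36 ± 0.23, adjusted p = 0.799). LAMB1 averaged 3.08 ± 2.02 CPM in IL-15 and 1.87 ± 0.678 CPM in control tumours (log2 fold change 0.72 ± 0.40, edgeR adjusted p = 0.776). IL-15 tumour 3 held 6.61 CPM of LAMB1 and the next IL-15 tumour 2.87 CPM. With a tumour left out, the log2 fold change of LAMB1 ran from 0.23 to 0.97. LAMC1 and LAMA5, the chains that join LAMB2 in its trimer, had near-equal means: LAMC1 453 ± 186 CPM in IL-15 and 457 ± 69.8 CPM in control tumours, and LAMA5 248 ± 68.0 CPM in IL-15 and 234 ± 13.7 CPM in control tumours. The 95% interval of LAMC1's log2 fold change ran from -0.53 to 0.51, so a change within those bounds was not excluded with 5 tumours a group. The interval was not adjusted for the number of genes tested and gives no limit of detection.

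Of the collagens, COL26A1 (chromosome 7, 101362820 to 101559024 on hg38) had the smallest p. It measured 27.3, 22.6, 15.2, 16.9 and 18.7 CPM in IL-15 tumours, and 9.09, 12.5, 11.6, 18.1 and 16.5 CPM in control tumours. IL-15 tumours 1, 2 and 5 lay above every control tumour, and IL-15 tumours 3 and 4 lay below the highest control tumour. Its means were 20.2 ± 4.85 CPM in IL-15 and 13.6 ± 3.69 CPM in control tumours (SD, n = 5 each), a log2 fold change of 0.57 ± 0.22 (SE, edgeR adjusted p = 0.758). Without IL-15 tumour 1, control tumour 1 or control tumour 3 the unadjusted p no longer passed 0.05.

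Among the fibrillar collagens, COL5A1 had the widest gap and rested on 1 tumour. It measured 0.965, 2.29, 1.81, 6.88 and 2.35 CPM in IL-15 tumours, and 7.17, 95.6, 0.753, 3.49 and 0.357 CPM in control tumours. The value of 95.6 CPM in control tumour 2 set the log2 fold change of -2.91 ± 1.42 (edgeR adjusted p = 0.774), which was -0.05 without that tumour. COL1A1 averaged 43.8 ± 21.1 CPM in IL-15 and 32.3 ± 13.9 CPM in control tumours (log2 fold change 0.44 ± 0.43, adjusted p = 0.862), and COL3A1 10.5 ± 3.65 CPM in IL-15 and 12.0 ± 4.29 CPM in control tumours. COL5A2 averaged 12.1 ± 5.64 CPM in IL-15 and 11.2 ± 8.17 CPM in control tumours. Of the 6 fibrillar genes tested, 4 had fold changes above 0 and 2 below.

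The other collagen classes gave no common direction. The anchoring fibril gene COL7A1 averaged 33.8 ± 20.1 CPM in IL-15 and 20.02 ± 12.5 CPM in control tumours, with a log2 fold change of 0.75 ± 0.53 (edgeR adjusted p = 0.818). COL7A1 had a high and a low range in both groups, 36.0, 56.5 and 49.9 CPM in IL-15 tumours 1, 3 and 4 with 12.5 and 14.1 CPM in the other two, and 37.6 and 28.6 CPM in control tumours 1 and 5 with 8.69 to 13.1 CPM in the other three. COL1A1 was highest in the same 3 IL-15 tumours and the same 2 control tumours, at 56.2, 54.5 and 62.8 CPM and at 52.4 and 40.2 CPM, a coincidence noticed in the values. COL9A3 averaged 11.04 ± 6.23 CPM in IL-15 and 16.9 ± 3.49 CPM in control tumours (log2 fold change -0.61 ± 0.31, adjusted p = 0.774), while its partner COL9A2 averaged 57.9 ± 15.6 CPM in IL-15 and 53.2 ± 36.9 CPM in control tumours. COL4A6 averaged 1.83 ± 0.596 CPM in IL-15 and 2.69 ± 1.11 CPM in control tumours (log2 fold change -0.55 ± 0.37, adjusted p = 0.802). COL6A1, the member with the highest mean FPKM, averaged 378 ± 101 CPM in IL-15 and 380 ± 62.2 CPM in control tumours. COL6A2 averaged 62.1 ± 27.0 CPM in IL-15 and 56.7 ± 17.1 CPM in control tumours.

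The partners and enzymes also overlapped between groups. FN1 measured 454, 676, 424, 703 and 456 CPM in IL-15 tumours, and 288, 467, 1325, 1226 and 327 CPM in control tumours. Control tumours 3 and 4 lay above every IL-15 tumour and control tumours 1 and 5 below every one, so the control group spread wider on both sides. The log2 fold change of FN1 was -0.42 ± 0.43 (edgeR adjusted p = 0.873). HSPG2 averaged 44.1 ± 13.6 CPM in IL-15 and 58.2 ± 23.9 CPM in control tumours (log2 fold change -0.40 ± 0.32, adjusted p = 0.832), and SPARC 1.21 ± 0.622 CPM in IL-15 and 1.19 ± 0.592 CPM in control tumours.

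LOX, the lysyl oxidase that starts collagen cross-linking, measured 30.7, 7.50, 66.5, 106 and 159 CPM in IL-15 tumours, and 196, 21.9, 1.98, 2.56 and 8.15 CPM in control tumours. A single control tumour held the highest value of all 10, and 3 control tumours held values near or below the lowest IL-15 tumour. The log2 fold change of LOX was 0.68 ± 1.28 (edgeR adjusted p = 0.938) and 3.09 ± 1.06 without control tumour 1, where its unadjusted p was 0.0191. In that fit the smallest edgeR adjusted p of any matrix gene was 0.495. PLOD2, the lysyl hydroxylase of collagen telopeptides, averaged 27.9 ± 14.8 CPM in IL-15 and 18.1 ± 9.58 CPM in control tumours (log2 fold change 0.62 ± 0.41, adjusted p = 0.802). PLOD1 averaged 258 ± 51.4 CPM in IL-15 and 281 ± 29.7 CPM in control tumours, and PLOD3 65.6 ± 13.8 CPM in IL-15 and 66.0 ± 11.1 CPM in control tumours.

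**Figure D4:**
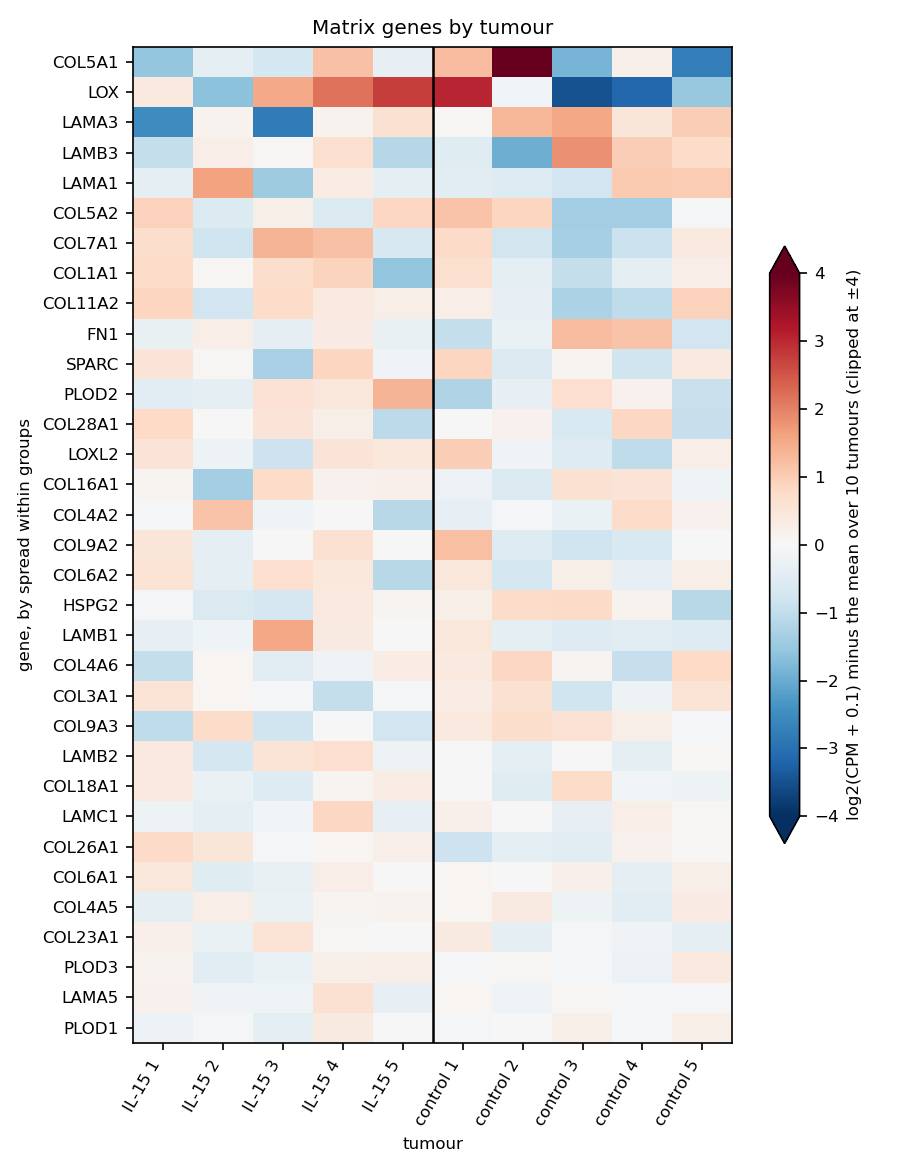
Level of 33 genes with a mean of at least 1 CPM in each tumour as log2(CPM + 0.1) minus the mean over the 10 tumours, with colours clipped at 4 on either side and the IL-15 tumours left of the control tumours. COL5A1 in control tumour 2 and LOX in control tumour 1 stand out as high, and LAMA3 in IL-15 tumours 1 and 3 as low.

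The matrix genes varied widely between tumours of the same group. The 34 genes with a mean of at least 1 CPM had a median within-group SD of 0.639 on the log2 scale, against 0.330 for all 15773 genes at that level, and 28 of the 34 were at or above the middle of all genes. Of these 34, 7 were at or above the 95th percentile of all genes, among them COL5A1, LOX, LAMA3, LAMB3, LAMA1 and COL5A2. With the level raised to at least 10 CPM, the median SD was 0.596 for 22 matrix genes and 0.271 for 10297 genes, and 8 matrix genes were above the 95th percentile, FN1, COL1A1, COL7A1 and PLOD2 now among them. The highest tumour exceeded the lowest by 268 times for COL5A1, 98.7 times for LOX, 20.5 times for LAMA3 and 15.1 times for LAMB3. PLOD1 and LAMA5, at the other end, were at the 31.2 and 48.04 percentiles of SD among genes of at least 10 CPM. These are descriptions of genes of 1 kind, with no test against other genes, since genes are not replicates.

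Partner genes were compared over the 10 tumours in 11 pairs, and 2 pairs varied together. COL4A5 and COL4A6 lie head to head on chromosome X, COL4A6 at 108155607 to 108439497 on the minus strand and COL4A5 at 108439844 to 108697545 on the plus strand (hg38). Their log2 CPM correlated with r = 0.90 (permutation p = 0.00045, adjusted 0.00495 over 11 pairs, n = 10 tumours) and rho = 0.83 (adjusted p = 0.0265), r was 0.76 without the 2 tumours farthest from the median of COL4A5, and 0.94 after the group means were removed. COL4A5 measured 44.05, 69.0, 48.4, 62.2 and 63.6 CPM in IL-15 tumours and 61.02, 74.6, 50.1, 42.05 and 73.1 CPM in control tumours, so the groups overlapped. PLOD2 and P4HA1, both collagen hydroxylase genes, correlated with r = 0.87 (permutation p = 0.00129, adjusted 0.00709, n = 10 tumours) and rho = 0.84 (adjusted p = 0.0265), with r = 0.87 without the 2 farthest tumours and 0.84 after the group means were removed.

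**Figure D5:**
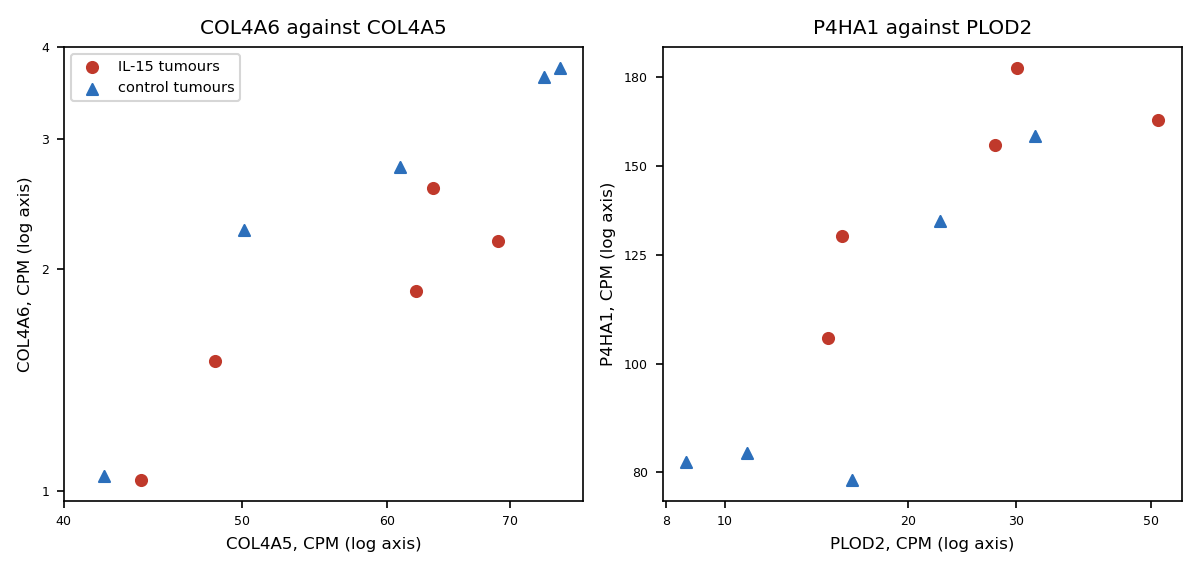
CPM of COL4A6 against COL4A5 (left) and of P4HA1 against PLOD2 (right) in the 10 tumours, both axes logarithmic (red circles, IL-15; blue triangles, control). In both plots the tumours with more of the x gene tend to have more of the y gene, in IL-15 and control tumours alike.

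The other 9 pairs did not pass after adjustment. COL3A1 and COL5A2, neighbours on chromosome 2, had r = 0.69 and rho = 0.76 (permutation, adjusted p = 0.0823 and 0.0583, n = 10 tumours). LAMA5 and LAMC1 had r = 0.76 (adjusted p = 0.0823) with rho = 0.41, and r = 0.05 without the 2 tumours farthest from the median. COL6A1 and COL6A2 had r = 0.40 (adjusted p = 0.402), and COL1A1 and COL3A1, which stromal fibroblasts make together, had r = 0.12 (adjusted p = 0.813). Pairs with COL1A2, COL4A1 or TGFBI, 4 in all, had too few reads to be compared.

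Genes that act on the matrix were read from lists beside the members, and none of their genes passed the edgeR test after adjustment. Of 28 collagen processing genes 20 were tested, 12 with fold changes above 0 and 8 below (median log2 fold change 0.11, against -0.01 over all genes). At an unadjusted p under 0.05 there were 2 higher and 1 lower, where 3.03% and 3.43% of all genes were. The 2 higher were the prolyl hydroxylases P4HA2 (log2 fold change 0.61 ± 0.27) and P3H1 (0.41 ± 0.19). The 1 lower was TLL1, a protease that trims procollagen: it measured 9.51, 16.5, 5.87, 11.4 and 15.1 CPM in IL-15 tumours and 108, 37.2, 45.3, 59.8 and 5.65 CPM in control tumours, so 4 control tumours exceeded every IL-15 tumour and the fifth lay below them (log2 fold change -2.13 ± 0.61, edgeR adjusted p = 0.758).

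Of 26 receptors for matrix proteins 23 were tested, 12 above 0 and 11 below, and the collagen receptor subunit ITGA2 was the 1 with an unadjusted p under 0.05 (4.35% of the 23, against 6.46% of all genes; log2 fold change -1.24 ± 0.44, edgeR adjusted p = 0.758). Of 26 matrix turnover genes 17 were tested, 8 above 0 and 9 below, with 2 higher at an unadjusted p under 0.05 (11.8% of the 17, against 3.03% of all genes higher). These were the metalloproteinases MMP10, at 2.68 ± 0.76 on the log2 fold change scale, and MMP14, at 1.007 ± 0.44, both with edgeR adjusted p = 0.758. MMP10 was scarce, with 4.27, 0.16, 3.87, 1.86 and 1.18 CPM in IL-15 tumours and 0.58, 0.71, 0.07, 0.23 and 0.14 CPM in control tumours, and IL-15 tumour 2 lay among the controls. Of 30 other matrix proteins 13 were tested, 8 above 0 and 5 below. Hypoxia markers were above 0 in 8 of 11 (median 0.33) and TGF-beta pathway genes in 8 of 15 (median 0.07). Over all genes 49.0% were above 0, with a median of -0.01. The hypoxia markers P4HA1 and P4HA2 are also in the collagen processing list. CA9 (-0.28) and ADM (-0.12) were among the 3 hypoxia markers below 0. Among hypoxia markers 1 had an unadjusted p under 0.05 (9.09% of the 11, against 6.46% of all genes), P4HA2, which is also a collagen processing gene, and among TGF-beta genes 0 had (edgeR), as had 0 of the other matrix proteins.

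Markers of other cells stood beside these values. The mural list summed to 107 ± 15.9 CPM in IL-15 and 135 ± 40.6 CPM in control tumours, and the endothelial list to 25.7 ± 6.34 CPM in IL-15 and 25.5 ± 12.95 CPM in control tumours. Over all tumours the mural genes NOTCH3, RGS5 and TAGLN averaged 68.0, 28.1 and 19.6 CPM. MYH11 and CSPG4 averaged 2.19 and 1.99 CPM, and ACTA2, MCAM, CNN1 and DES 0.571, 0.552, 0.076 and 0.035 CPM. The endothelial genes VWF, ENG and CLDN5 averaged 19.1, 4.47 and 0.863 CPM. EMCN, PECAM1, CDH5, FLT1 and TEK averaged 0.334, 0.291, 0.197, 0.168 and 0.138 CPM, and KDR was at 0. The mural and endothelial sums thus rest mostly on a few genes of each list. The basal epithelial list summed to 48.9 ± 19.8 CPM in IL-15 and 50.3 ± 29.5 CPM in control tumours, with KRT14 at 44.8 CPM, KRT15 at 4.74 CPM and TP63 at 0 over all tumours. The mesenchymal list summed to 81.2 ± 21.1 CPM in IL-15 and 71.9 ± 53.1 CPM in control tumours. Over all tumours TWIST1, VIM and SNAI2 averaged 51.1, 19.3 and 4.90 CPM, ZEB2 and ZEB1 1.01 and 0.252 CPM, and CDH2 was at 0. The NK and cytotoxic list summed to 17.8 ± 13.7 CPM in IL-15 and 4.69 ± 5.61 CPM in control tumours (two-sided exact permutation p = 0.0397, adjusted 0.278 over 10 lists). By gene, reads in IL-15 and control tumours were 547 and 150 for GNLY, 231 and 42 for GZMB and 187 and 38 for PRF1. They were 174 and 72 for NKG7 and 158 and 14 for GZMA. KLRD1 had 24 and 19, NCR1 4 and 8 and KLRF1 0 and 2, so the higher sum rested on the other genes. The smallest exact permutation p that 5 against 5 tumours allow is 0.00794. The myeloid list summed to 2.87 ± 0.957 CPM in IL-15 and 2.99 ± 1.77 CPM in control tumours, and the B cell list to 0.247 ± 0.205 CPM in IL-15 and 0.372 ± 0.142 CPM in control tumours. The part of these cells in the matrix values was not tested.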

How the data were processed

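RNA-seq read counts per gene of 10 tumours were deposited by the authors as whole numbers, not normalized, together with FPKM values that equal count over gene length and a factor per library, per the file headers and values. Per the submitters' processing notes the build was hg38, and the tools, listed without roles, were GATK 4.1.1.0, HISAT2 2.0.5, fastp, DESeq2 1.20.0 and featureCounts 1.5.0-p3. The sources used here do not give strandedness, annotation release or mouse-read removal. The deposited table of group mean FPKM was not used, since its control mean by the authors differed from that of the 5 control libraries. Whether the control group had held another library was not tested.

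Counts were filtered with edgeR 4.0.16 filterByExpr (minimum count 10), scaled by TMM and tested by the quasi-likelihood test (robust, R 4.3.3) over 16913 genes, Benjamini-Hochberg adjusted at 0.05. The common biological coefficient of variation was 0.306. No libraries were duplicates (chi-square per degree of freedom 20.6 to 92.7 over 45 pairs). The script was tested on simulated data. Marker sums used log2(CPM + 0.1) and exact permutation over 252 assignments, and correlations used 100000 permutations. Alternatives used DESeq2 1.42.0, limma 3.58.1 and other scalings and filters. Members and lists were chosen with earlier results of these data known.

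Named were the 10 tested members with the smallest p per direction, the 3 highest by FPKM per role class, all 10 partner and enzyme genes, both genes of each pair compared, and the 2 genes with the smallest p per direction in each other list, given here where they carry a result. A gene that the rule takes is counted but not reported here. Other genes were named to describe a class or complex.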

Additional observations from a re-analysis of the deposited data

Results flagged for a closer look

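Single tumours stood apart from the other 4 of their group in 8 of the 66 groups examined (33 genes in 2 groups), or 12.1%. Their gap to the next tumour was 0.72 to 0.93 of the group's range in CPM, and all 8 were the highest tumour. The chance rate of about 5% allows neither for skewed CPM nor for genes that share tumours. Whether 12.1% exceeds chance was not tested. Each is given as TMM-scaled CPM beside the next tumour of the same group.

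In the IL-15 group, tumour 4 was highest for COL5A1 with 6.88 CPM (next 2.35) and for LAMC1 with 783 CPM (next 408), and tumour 3 was highest for LAMB1 with 6.61 CPM (next 2.87). In the control group, tumour 1 was highest for COL9A2 with 118 CPM (next 50.04), for LAMB1 with 3.07 CPM (next 1.70) and for LOX with 196 CPM (next 21.9). Control tumour 2 was highest for COL5A1 with 95.6 CPM (next 7.17) and control tumour 3 for COL18A1 with 50.5 CPM (next 29.7). IL-15 tumour 4 and control tumour 1 thus held 5 of the 8 values. LAMB1 and COL18A1 overlap the genes DLD and SLC19A1, whose part in these values was not tested.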

How the results depend on the processing

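No matrix gene passed an adjusted p of 0.05 under any alternative tried. Over all genes, 1 was called without a low-count filter and 7 by DESeq2, against 0 by edgeR, and 0 with any tumour left out. At an unadjusted p under 0.05, edgeR's 1 matrix gene became 2 without the filter, 3 with limma voom, 3 on log2(FPKM + 0.1), 3 on log2(FPKM + 1), 2 with the replicate number as a block, and 0 (without IL-15 tumour 1) to 3 with a tumour left out. Fold changes above 0 numbered 15 to 24 of 35 with a tumour left out. Scaling by library size alone moved the median of all genes to a log2 fold change of 0.08 and turned 4 of 35 matrix genes, COL4A5 to 0.0065. With a tumour left out, COL4A5 ran from -0.17 to 0.022, COL5A1 from -3.53 to -0.05, LOX from 0.19 to 3.09 and FN1 from -0.63 to -0.09, while LAMA3 was lower in IL-15 tumours in all 10 such fits. Marker sums that changed direction were the endothelial (-0.047 to 0.36), myeloid (-0.12 to 0.32), luminal (-0.0051 to 0.15) and basal (-0.20 to 0.37) lists. The causes were not tested. Deviations of same-numbered tumours from their group means correlated at -0.22 to 0.26 over 16913 genes, so they did not share a common direction. A donor or batch shared by a number cannot be told from this. The block changed no adjusted call, where edgeR without it had called 0.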
